A study of Mus musculus with 19 samples.

Results

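Inguinal white fat of mice with a CHX207 fibrosarcoma, a mouse sarcoma line, was compared with the same depot of mice without a tumour, in 5 tumour control libraries and 4 healthy libraries. These are 9 of the 19 libraries of the series. They were chosen by their labels (CHX_untreated with control AAV, and Healthy_control) and not by any measured value. All mice were wild-type (WT) C57BL/6JRj animals kept at thermoneutrality (29 °C) with food and water freely available, after 14 days of acclimatization. In the tumour control group the cells were placed in the right gastrocnemius, a calf muscle, 9 days after an intravenous dose of control AAV, the adeno-associated virus that served as control for FGF21 AAV. The healthy group had control AAV by vein and PBS into the abdomen. Both groups therefore carried the control virus. The labels give PBS for the healthy group only, give no interval between virus and collection for it, and give neither age nor sex. Tissue was collected on day 14 after the tumour cells. The other 10 libraries, from tumour mice given FGF21 AAV or efruxifermin (an FGF21 analogue), share the estimate of spread. Replicates are numbered separately, but the labels do not tie numbers to litters, cages or collection days. The p-values thus measure the spread between these libraries.

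White fat stores triglyceride in adipocytes, each wrapped in a basement membrane and held in a collagen network that fibroblast-like progenitors make. Vessels run through it, with mural cells (pericytes and smooth muscle) around the endothelium. In cachexia, the wasting that tumours bring, adipocytes release fatty acids and shrink. The mouse inguinal depot also holds a lymph node and, in females, mammary epithelium, and it lies against the thigh muscles, so dissections can carry RNA of each.

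The libraries were of whole tissue, read from the 3' end of transcripts. They held 2106634 to 3693864 reads in the tumour control group and 2693930 to 2844145 reads in the healthy group. Between 14612 and 16125 genes were detected in tumour control libraries and between 15694 and 17040 in healthy libraries. Gm42418, a gene that overlaps ribosomal RNA, took 3.81% to 8.79% of tumour control reads and 1.93% to 4.24% of healthy reads. Mitochondrial transcripts took 4.15% to 13.9% and 4.61% to 8.88%, tumour control first. All 9 libraries expressed the defining adipocyte markers, as the label says: Plin1, the coat protein of the lipid droplet, lay at 59.8 to 288 RPM (reads scaled to library size) in the tumour control group and at 405 to 1104 RPM in the healthy group.

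Neighbouring tissues entered some libraries and not others. A marker score was taken as the mean log2(RPM + 1) of a list. The B cell score was 8.07, 8.15, 7.33, 0.64 and 6.86 in tumour control 1 to 5, against 0.57, 6.38, 6.98 and 0.87 in healthy 1 to 4. Lymph node RNA (a score above 3) was thus present in 4 of 5 tumour control and 2 of 4 healthy libraries. The summed level of the 18 B cell markers was 3445 to 7380 RPM in those 4 tumour control libraries and 2398 and 3171 RPM in those 2 healthy libraries. In tumour control 4, healthy 1 and healthy 4 it was 50.1, 25.7 and 96.0 RPM, with Cd79a and Ms4a1 at 0. The 24 T and NK cell markers followed the same division. They summed to 1851 to 3574 RPM in the 4 tumour control libraries and 2114 and 3474 RPM in the 2 healthy libraries with lymph node RNA, and to 9.2 RPM in tumour control 4, against 62.2 and 43.2 RPM in healthy 1 and 4. The 22 skeletal muscle markers summed to 2135, 149, 251, 144275 and 875 RPM in tumour control 1 to 5, against 57766, 679, 17677 and 12343 RPM in healthy 1 to 4. Tumour control 4 therefore stood apart from its group on both measures, with no lymph node RNA and the most muscle RNA of the 9 libraries. The adipocyte score was 6.89, 5.56, 7.98, 7.27 and 8.30 in tumour control 1 to 5, against 8.39, 8.35, 8.52 and 9.49 in the healthy group, and these did not overlap. In whole tissue, fewer cells of a type and less RNA per cell cannot be told apart, and this holds for every level below.

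**Figure D1:**
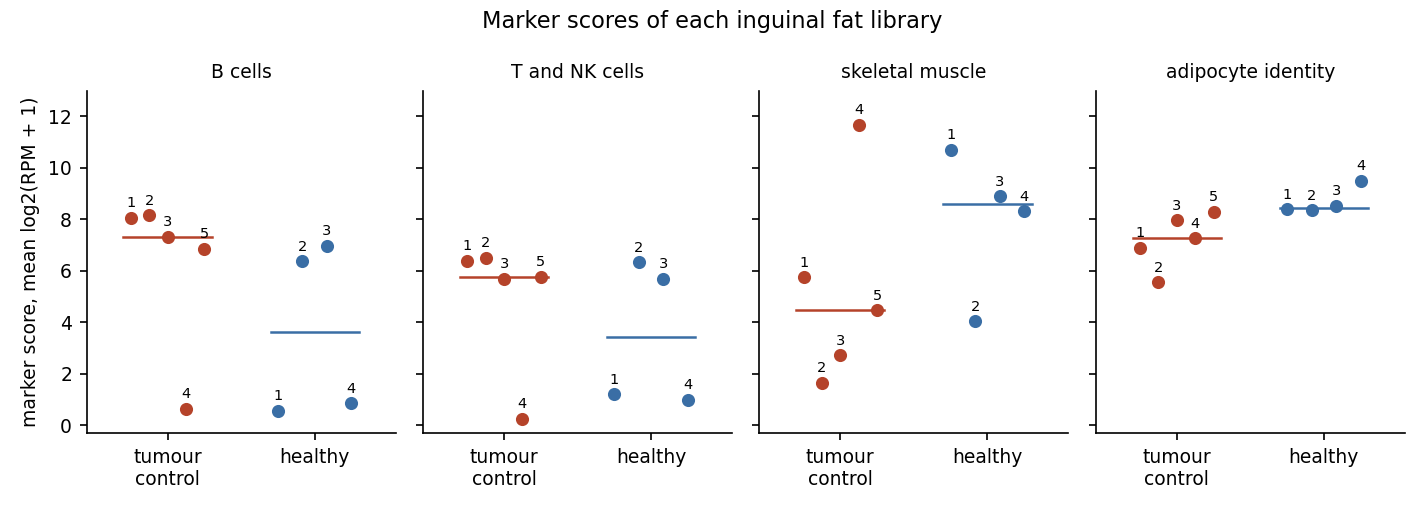
Marker scores, the mean log2(RPM + 1) of each list, are plotted for every library, with replicate numbers above the points and a line at each group's median. Tumour control 4 lies at 0.64 for B cells among tumour control libraries of 6.86 to 8.15, and the adipocyte scores of tumour control libraries (5.56 to 8.30) all lie under those of healthy libraries (8.35 to 9.49).

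Across the transcriptome the differences lay mostly on the lower side. Of 17013 genes tested by limma on log2(RPM + 1), 8 passed a Benjamini-Hochberg adjusted p of 0.05, which is 0.047% of genes, and all 8 were lower in the tumour control group. At an unadjusted p under 0.05, 7.49% of genes (1275) were lower and 0.823% (140) were higher. This imbalance depended on tumour control 4: without it, 1628 genes were lower and 834 were higher at that threshold (limma). In 3.66% of genes every tumour control library lay below every healthy library, and in 0.212% every one lay above. The median log2 change over all genes was -0.16, and other scalings moved it by over 0.1, to -0.03 with median-of-ratios factors and to 0.02 with quantile normalization. The number called was 64 (0.376%) without tumour control 4 and 1 without healthy 4. It was 3, 4, 17 and 42 without tumour control 1, 2, 3 and 5. No gene (0%) was called among the libraries with lymph node RNA alone, 4 against 2, where 755 genes had an unadjusted limma p under 0.05. On the recovered reads, edgeR called 1 gene (Alb, 0.00588%) and DESeq2 called 39 (0.229%).

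**Figure D2:**
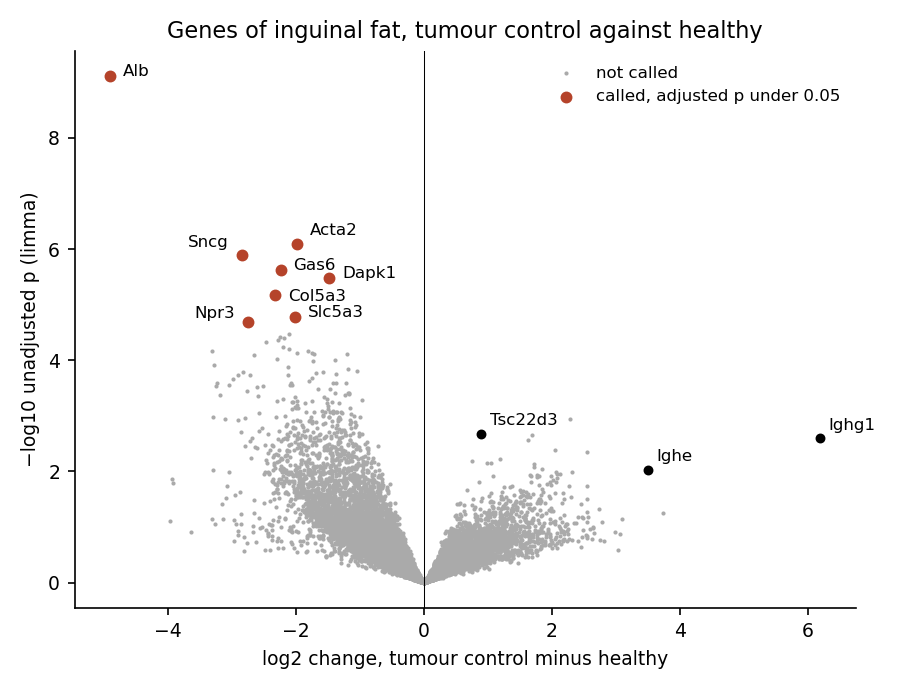
Each point is 1 of 17013 genes, with the log2 change (tumour control minus healthy) on the x axis and −log10 of the unadjusted limma p on the y axis. The 8 called genes, in colour, all lie left of 0, with Alb at -4.91, and Ighg1 at 6.20 marks the right end without being called.

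The called genes belong to several parts of the tissue: smooth muscle, matrix, adipocytes and, with Alb, a transcript for which the liver is the main source. Alb encodes albumin of the blood plasma. It was at 0, 0, 0, 0.271 and 0 RPM in tumour control libraries, against 39.7, 17.4, 26.3 and 46.9 RPM in healthy libraries. A single read was found in the tumour control group and 361 in the healthy group, so that the healthy level was 453 times as high (exact 95% binomial interval 80.8 to 17937, counting error only). On the log2 scale Alb fell by 4.91 ± 0.50 (SE, adjusted p = 1.31e-05, limma).

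Acta2 encodes the actin of smooth muscle. It stood at 76.9, 46.5, 134, 110 and 87.7 RPM in tumour control libraries, against 436, 348, 220 and 410 RPM in healthy libraries. The highest tumour control library was under the lowest healthy one, and tumour control 4, with 144275 RPM of muscle markers, lay among the others of its group. Acta2 fell by 1.98 ± 0.30 on the log2 scale (SE, adjusted p = 0.00678, limma).

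Sncg, a synuclein made in adipocytes and sensory neurons, was at 55.5, 14.0, 23.2, 39.0 and 32.0 RPM in tumour control libraries, against 187, 225, 195 and 287 RPM in healthy libraries. The groups were far apart, and Sncg fell by 2.85 ± 0.44 (log2, SE, adjusted p = 0.00727, limma). Npr3, the receptor that clears natriuretic peptides from the tissue, was at 1.90, 0.757, 4.91, 9.20 and 5.07 RPM in tumour control libraries, against 18.6, 23.0, 33.1 and 52.0 RPM in healthy libraries. It fell by 2.75 ± 0.52 (log2, SE, adjusted p = 0.0439, limma). Npr1, a signalling receptor of the same peptides, gave -0.53 ± 0.46 (SE, adjusted p = 0.855, limma). All 3 natriuretic peptide receptors had fitted changes below 0, and Npr2 gave their median of -0.97. At an unadjusted limma p under 0.05, 2 of the 3 were lower, against 7.49% of all genes. The difference between Npr3 and Npr1 was not tested.

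Col5a3 encodes a fibrillar collagen chain. It was at 14.7, 19.7, 22.1, 31.9 and 48.7 RPM in tumour control libraries, against 92.1, 104, 120 and 247 RPM in healthy libraries. Healthy 4, the library with the highest adipocyte score, was also the highest here. Col5a3 fell by 2.32 ± 0.40 (log2, SE, adjusted p = 0.019, limma).

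Gas6, a secreted ligand of the TAM receptor kinases, was at 52.2, 59.0, 68.1, 212 and 171 RPM in tumour control libraries, against 376, 324, 492 and 701 RPM in healthy libraries. Tumour control 4 and 5 were the highest of their group and still under each healthy library. Gas6 fell by 2.24 ± 0.36 (log2, SE, adjusted p = 0.0102, limma). Slc5a3, the myo-inositol transporter, was at 35.6, 24.2, 53.0, 80.9 and 80.3 RPM in tumour control libraries, against 162, 180, 193 and 305 RPM in healthy libraries, and fell by 2.02 ± 0.38 (log2, SE, adjusted p = 0.0411, limma). Dapk1, a kinase of cell death and autophagy, was at 78.8, 84.7, 110, 122 and 117 RPM against 397, 226, 223 and 318 RPM in healthy libraries, and fell by 1.48 ± 0.24 (log2, SE, adjusted p = 0.0111, limma). In all 8 genes the groups did not overlap, against 3.66% of all genes with every tumour control library below. The 8 were called on these same values, so this separation adds no further evidence. All 8 stayed called without tumour control 4, 3 without tumour control 1 (Alb, Acta2 and Sncg), 4 without tumour control 2 (those and Gas6), and Alb alone without healthy 4.

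**Figure D3:**
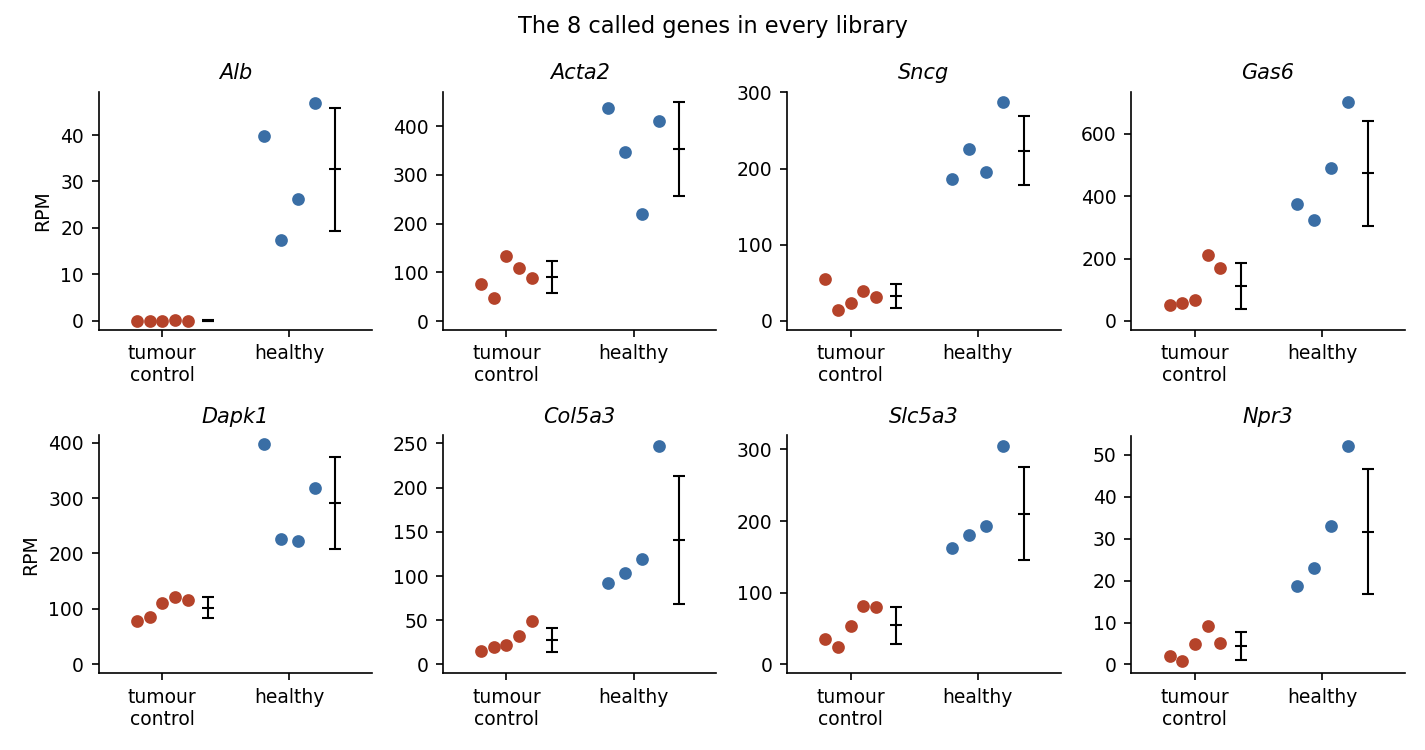
RPM of the 8 called genes in every library is shown by points, with the mean and SD as a bar beside each group. In each panel the 5 tumour control points lie below the 4 healthy points, for example 46.5 to 134 RPM against 220 to 436 RPM for Acta2.

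The genes of the collagen network and of the basement membrane were lower as groups. Of 16 collagen chains tested, 14 were lower at an unadjusted limma p under 0.05, against 7.49% of all genes, none was higher, and 1 (Col5a3) was called. The median log2 change was -1.85, against -0.16 over all genes, and in 12 of the 16 the groups did not overlap, against 3.66% of all genes with every tumour control library below. The 2 chains that were not lower at an unadjusted limma p under 0.05, Col8a1 and Col12a1, were named after their values were seen. Of the 16 fitted changes 15 were below 0, and the highest was 0.13. Col6a3, a chain of the microfibrils around cells, was at 49.8, 27.2, 56.1, 62.0 and 90.1 RPM in tumour control libraries, against 141, 221, 276 and 347 RPM in healthy libraries. Every tumour control library was below every healthy one, at -2.11 ± 0.42 (log2, SE, adjusted p = 0.0611, limma). Its partner Col6a2 averaged 20.5 ± 9.03 RPM (SD, n = 5) against 95.8 ± 40.9 RPM (SD, n = 4) in healthy fat. Col4a2, of the basement membrane's type IV collagen, averaged 64.7 ± 27.2 RPM (SD, n = 5) against 201 ± 54.7 RPM (SD, n = 4) in healthy fat.

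In the basement membrane list, 9 of 10 members were lower at an unadjusted limma p under 0.05, against 7.49% of all genes. The median was -1.32 and no member was called. Sparc, a secreted protein that binds collagen, was at 496, 309, 700, 673 and 870 RPM in tumour control libraries, against 1867, 1195, 1218 and 2667 RPM in healthy libraries, with no overlap. Lama2, a laminin chain, averaged 4.38 ± 4.15 RPM (SD, n = 5) against 26.8 ± 11.7 RPM (SD, n = 4) in healthy fat. Lamb1 and Lamb2, other laminin chains, gave -1.32 and -1.25 on the log2 scale, and their groups overlapped. Of 26 matrix glycoproteins and remodelling genes, 13 were lower at an unadjusted limma p under 0.05, against 7.49% of all genes. The median of this list was -1.14. Lum, a small proteoglycan that spaces collagen fibrils, was at 9.97, 2.27, 17.9, 16.5 and 12.5 RPM in tumour control libraries, against 107, 82.4, 56.8 and 191 RPM in healthy libraries. It had the largest change of that list, at -3.19 ± 0.78 (SE, adjusted p = 0.122, limma), and its groups were apart. Dcn, a related proteoglycan, averaged 441 ± 221 RPM (SD, n = 5) against 1471 ± 472 RPM (SD, n = 4) in healthy fat. Postn (periostin) averaged 17.5 ± 9.76 against 123 ± 80.4 RPM in healthy fat, and Fbn1 (fibrillin) 11.7 ± 7.32 against 56.1 ± 17.2 RPM (SD, n = 5 and 4). Spon1, a secreted matrix protein, gave -2.25 ± 0.44 (log2, SE, adjusted p = 0.0611, limma), with 1 overlapping pair of values, 46.8 RPM in tumour control 5 and 44.3 RPM in healthy 1.

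The collagens kept a median of -1.82 without tumour control 4 and of -1.56 among the libraries with lymph node RNA, where 10 of 16 chains were lower at an unadjusted limma p under 0.05, against 3.91% of all genes. Progenitor markers are from the cells that make much of this matrix. Over all libraries, 9 of 16 were lower at an unadjusted limma p under 0.05, against 7.49% of all genes (median -1.20, none called). Pi16, a marker of the progenitors of the fat's connective tissue sheaths, was at 3.80, 5.30, 14.0, 31.7 and 27.3 RPM in tumour control libraries, against 37.3, 40.8, 33.5 and 109 RPM in healthy libraries. The groups did not overlap, and tumour control 4 lay just under healthy 3. F3, tissue factor, a marker of another progenitor class, averaged 20.7 ± 6.09 RPM (SD, n = 5) against 76.0 ± 47.0 RPM (SD, n = 4) in healthy fat, with overlap.

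Mural cell genes other than Acta2 were not called. Of 15 members, 9 were lower at an unadjusted limma p under 0.05, against 7.49% of all genes, and all 15 fitted changes were below 0, with a median of -1.43. In 7 of the 15 every tumour control library lay below every healthy one, against 3.66% of all genes. The summed level of the list was 5688 RPM in tumour control 4 and 4361 RPM in healthy 1. These held the most skeletal muscle RNA of their groups. It was 375 to 597 RPM in the other tumour control libraries and 1105 to 1623 RPM in the other healthy libraries. How much of the list's change came from muscle RNA was not tested. Notch3, the receptor that maintains smooth muscle of small arteries, was at 18.0, 14.0, 18.6, 27.6 and 21.1 RPM in tumour control libraries, against 73.8, 41.6, 38.9 and 70.4 RPM in healthy libraries. Every tumour control library was lower than every healthy one, at -1.43 ± 0.37 (log2, SE, adjusted p = 0.161, limma). Myh11, the myosin of smooth muscle, was at 29.9, 23.8, 43.5, 36.5 and 24.96 RPM against 123, 91.7, 44.2 and 70.4 RPM in healthy libraries, and tumour control 3 came close to healthy 3. Myl9, a regulatory light chain, was at 9.97, 5.30, 36.5, 7.04 and 17.5 RPM against 59.8, 48.6, 23.0 and 30.4 RPM in healthy libraries, with overlap through tumour control 3. Endothelial markers of the same vessels were lower in 2 of 15 at that threshold, with a median of -0.63. Cldn5, a tight junction protein of endothelium, averaged 20.9 ± 15.6 RPM (SD, n = 5) against 45.5 ± 22.4 RPM (SD, n = 4) in healthy fat. The difference between mural and endothelial lists was not tested.

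Many smooth muscle genes are switched on by serum response factor at CArG boxes, short motifs of CC, an AT-rich core and GG. The promoters of Acta2 and Myl9 are shown because Acta2 was called and these were the only 2 of 12 mural genes with a promoter in the RefSeq table (of 15) whose 250 bases before the start held such a box, when 1 G or C was allowed in the core of 6 bases. Of 32851 RefSeq promoter windows, 8.59% held a box by this rule and 1.47% held one with no G or C in the core. The motif reads the same on both strands, and boxes are in capitals in the 250 bases before each start, on build GRCm38.p6.
Acta2 (chr19:34255374-34255623, minus strand): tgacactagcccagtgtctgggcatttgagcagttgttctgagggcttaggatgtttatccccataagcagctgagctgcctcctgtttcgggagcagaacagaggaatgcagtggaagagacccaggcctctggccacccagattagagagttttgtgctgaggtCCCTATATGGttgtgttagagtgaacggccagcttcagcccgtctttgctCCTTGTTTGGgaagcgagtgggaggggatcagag
Myl9 (chr2:156775214-156775463, plus strand): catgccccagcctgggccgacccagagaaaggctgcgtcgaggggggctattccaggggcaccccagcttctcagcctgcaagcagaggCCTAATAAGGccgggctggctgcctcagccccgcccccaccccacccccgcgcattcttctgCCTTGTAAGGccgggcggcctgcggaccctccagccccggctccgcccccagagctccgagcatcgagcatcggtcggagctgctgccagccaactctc
In Acta2 the boxes begin 84 and 34 bases before the start, each with 1 G or C in its core. In Myl9 they begin 161 and 99 bases before it, and the first has none. These are matches of letters, and the other 10 windows say only that no such letters stand there.

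Adipocyte genes were lower as a group without a called member. Of 20 adipocyte identity genes, 16 were lower at an unadjusted limma p under 0.05, against 7.49% of all genes, all 20 fitted changes were below 0, and the median was -1.49. The groups did not overlap in 6 of the 20, against 3.66% of all genes with every tumour control library below. Plin1 was at 141, 59.8, 233, 181 and 288 RPM in tumour control libraries, against 405, 516, 557 and 1104 RPM in healthy libraries. Adipoq, which encodes the hormone adiponectin, was at 260, 58.6, 532, 259 and 452 RPM against 724, 851, 714 and 2192 RPM in healthy libraries. Tumour control 2 was the lowest and healthy 4 the highest in both genes. Tshr, the thyrotropin receptor through which lipolysis can be triggered, had the largest change of the list, at 1.42, 0.757, 9.47, 0 and 17.2 RPM against 22.2, 46.8, 36.3 and 48.4 RPM in healthy libraries. Its fitted change was -3.31 ± 0.69 (log2, SE, adjusted p = 0.0611, limma). Fabp4, the fatty acid carrier, averaged 1584 ± 838 RPM (SD, n = 5) against 4416 ± 2442 RPM (SD, n = 4) in healthy fat. Pparg, the transcription factor of adipocyte identity, was at 16.6, 1.14, 33.3, 20.3 and 70.6 RPM against 68.9, 53.8, 78.1 and 111 RPM in healthy libraries, with tumour control 5 inside the healthy range.

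Genes of lipid uptake and of lipid release held no called member. The uptake list had 10 of 17 members lower, and the lipolysis and droplet list 12 of 26, at an unadjusted limma p under 0.05. The share was 7.49% over all genes, and the medians of the 2 lists were -1.14 and -1.08. Their counts are not separate from that of adipocyte identity. The uptake list shares Lpl, Cd36 and Fabp4 with it, and the other shares Pnpla2, Lipe, Plin1, Plin4, Cidec, Adrb3 and Aqp7. Lpl, the lipase that frees fatty acids from lipoproteins, was at 1123, 504, 2326, 2250 and 3342 RPM in tumour control libraries, against 5238, 4137, 3496 and 7928 RPM in healthy libraries. Its inhibitor Angptl4 was at 23.7, 22.7, 77.2, 31.1 and 25.7 RPM against 193, 120, 63.7 and 272 RPM in healthy libraries. Lpl did not overlap between groups, while tumour control 3 exceeded healthy 3 for Angptl4 (-2.11 ± 0.43, log2, SE, adjusted p = 0.0611, limma). Cav1, of the caveolae of the adipocyte surface, and Lrp1, a lipoprotein receptor, averaged 64.8 ± 34.5 and 47.9 ± 17.2 RPM (SD, n = 5), against 253 ± 155 and 160 ± 52.9 RPM in healthy fat (SD, n = 4). On the release side, Aqp7, the channel by which glycerol leaves, averaged 28.6 ± 15.7 RPM (SD, n = 5) against 77.4 ± 13.8 RPM (SD, n = 4) in healthy fat, with no overlap. G0s2, an inhibitor of the triglyceride lipase, averaged 75.4 ± 56.2 against 250 ± 161 RPM in healthy fat, and Adrb3, the adrenergic receptor that starts lipolysis, 166 ± 79.4 against 328 ± 132 RPM (SD, n = 5 and 4), and both overlapped.

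Triglyceride synthesis genes were lower in 5 of 14 at that threshold (median -0.58). Gpam, which attaches the first fatty acid to glycerol phosphate, was at 55.5, 51.1, 84.2, 151 and 154 RPM against 198, 176, 254 and 224 RPM in healthy libraries. Pck1, which supplies glycerol phosphate in fasting, averaged 157 ± 106 RPM (SD, n = 5) against 573 ± 248 RPM (SD, n = 4) in healthy fat. Gpam kept the groups apart and Pck1 did not. De novo lipogenesis had 1 of 16 members lower at that threshold, a share of 6.25% near the 7.49% of all genes, and a median of -0.44. Its most abundant desaturase Scd1 averaged 1161 ± 570 RPM (SD, n = 5) against 2830 ± 1745 RPM (SD, n = 4) in healthy fat, with overlap (adjusted p = 0.625, limma).

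Hormones of the adipocyte were lower in 11 of 16 at an unadjusted limma p under 0.05, against 7.49% of all genes (median -1.44). Lep, Adipoq, Retn and Cfd of this list are also in the adipocyte identity list. Lep, which encodes leptin, was at 10.9, 1.89, 14.0, 18.4 and 31.6 RPM in tumour control libraries, against 17.9, 43.8, 48.2 and 47.6 RPM in healthy libraries, and overlapped through healthy 1. Rbp4, a retinol carrier, averaged 24.1 ± 12.3 RPM (SD, n = 5) against 89.6 ± 27.9 RPM (SD, n = 4) in healthy fat, and Nnat, neuronatin, 238 ± 78.4 against 651 ± 222 RPM, both without overlap. Among the most abundant genes that differed at an unadjusted limma p under 0.01 were also Gsn (gelsolin), Dbi, an acyl-CoA carrier, and Gpx3, a secreted peroxidase. They averaged 1387 ± 639, 858 ± 465 and 824 ± 462 RPM (SD, n = 5), against 4238 ± 1828, 2266 ± 1275 and 2230 ± 1171 RPM in healthy fat (SD, n = 4).

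Mitochondrial pathways held no called gene. Fatty acid oxidation had 12 of 21 members and branched-chain amino acid breakdown 8 of 21 members lower at an unadjusted limma p under 0.05, with medians of -0.73 and -0.69. The nuclear genes of the respiratory chain had 1 of 22 (median -0.39), and the citric acid cycle 2 of 22 (median -0.39), both near the 7.49% of all genes that were lower at this threshold. Hadh, of fatty acid oxidation, was at 74.1, 52.2, 102, 117 and 155 RPM against 266, 184, 244 and 344 RPM in healthy libraries. Hibadh, which acts in valine breakdown, was at 43.2, 46.2, 73.0, 93.4 and 87.4 RPM against 165, 111, 150 and 206 RPM in healthy libraries. Both kept the groups apart, with limma adjusted p = 0.161 and 0.0999. Acat1, shared by ketone and isoleucine breakdown, and Pccb, of propionate breakdown, gave -1.18 and -1.23 on the log2 scale, also without overlap. Skeletal muscle also expresses these genes, and tumour control 4 held the most muscle RNA. That library also lacked lymph node RNA. Without it, 10 of 22 respiratory chain genes were lower at an unadjusted limma p under 0.05, against 9.57% of all genes. With it kept and the fit adjusted for the B cell and muscle scores, 1 of 22 was lower at that threshold. The median was then -0.33, and 1375 of 17013 genes were lower. The part of muscle RNA in these counts was not tested. The 24 cytosolic ribosomal protein genes had fitted changes above 0 throughout, between 0.08 and 0.38, and none passed that threshold. Their median of 0.22 became -0.12 when B cell and muscle scores entered as covariates.

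**Figure D4:**
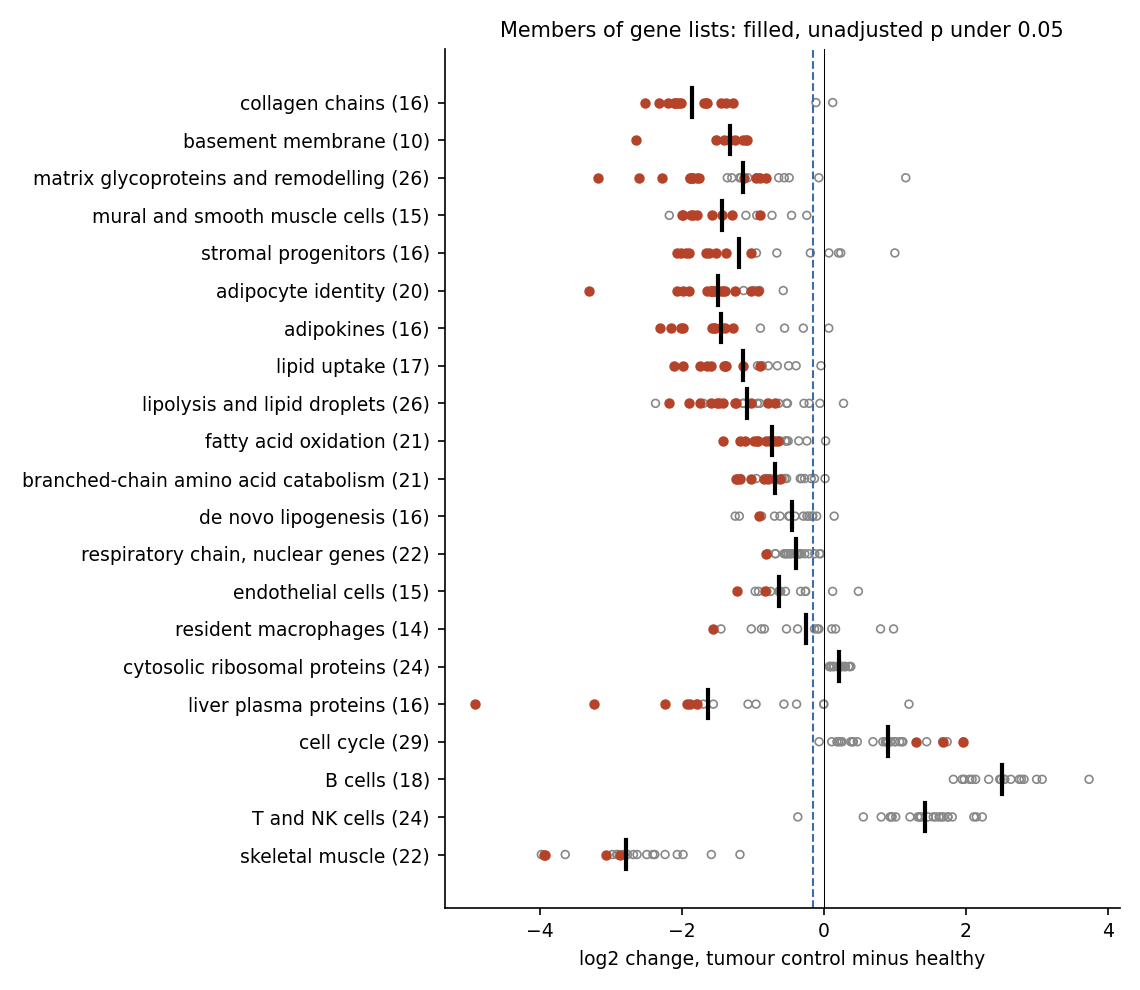
Each point is a member of a gene list at its log2 change (tumour control minus healthy), filled where the unadjusted limma p is under 0.05, with a black bar at the list's median, a dashed line at the median of all genes (-0.16) and the number tested in brackets. Collagens centre on -1.85 and adipocyte genes on -1.49, while B cell markers centre on 2.51 and skeletal muscle markers on -2.78 with few filled points.

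Genes of hormone and growth factor signalling held no called member apart from Npr3 and Gas6, described above. Fgfr1, the receptor through which FGF21 acts in fat with the co-receptor Klb, was at 33.2, 28.4, 50.9, 75.8 and 53.4 RPM in tumour control libraries, against 210, 75.7, 73.4 and 156 RPM in healthy libraries. Tumour control 4 overlapped with healthy 2 and 3, and the change was -1.33 ± 0.34 (log2, SE, adjusted p = 0.138, limma). Klb averaged 2.46 ± 2.65 RPM (SD, n = 5) against 10.1 ± 7.20 RPM (SD, n = 4) in healthy fat (adjusted p = 0.737, limma). Fgf21 itself had 2 reads, both in tumour control 2, and 0 reads in the healthy group, which allows up to 0.272 RPM over that group. Ucp1, which uncouples mitochondria in thermogenic fat, had 0 reads in both groups, which allows up to 0.216 RPM over the tumour control group and 0.272 RPM over the healthy group. Of 21 genes of FGF receptors and their ERK pathway, 6 were lower at an unadjusted limma p under 0.05, against 7.49% of all genes. The median was -0.86. Fgf10, a growth factor of fat progenitors, averaged 8.17 ± 6.05 RPM (SD, n = 5) against 32.3 ± 17.4 RPM (SD, n = 4) in healthy fat, without overlap. Egr1, an early response gene of ERK, averaged 37.4 ± 20.7 against 116 ± 53.0 RPM, with overlap.

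In the insulin pathway 5 of 17 members were lower at that threshold, against 7.49% of all genes (median -0.52). Irs1, the adaptor of the insulin receptor, was at 30.9, 10.6, 40.3, 75.0 and 58.1 RPM against 104, 79.8, 114 and 133 RPM in healthy libraries. Slc2a4, the insulin-regulated glucose transporter, was at 18.99, 3.78, 40.3, 163 and 128 RPM against 162, 78.7, 131 and 174 RPM in healthy libraries. Irs1 did not overlap. Slc2a4, which muscle also expresses, did, and tumour control 4, the library richest in muscle RNA, was the highest of its group. Activin and TGF-beta genes had 7 of 23 lower (median -0.69). Stat5a, a transcription factor of growth hormone and cytokine signals, averaged 37.9 ± 19.1 RPM (SD, n = 5) against 83.1 ± 5.41 RPM (SD, n = 4) in healthy fat, without overlap. Genes of the integrated stress response had 5 of 19 lower (median -0.40), among them Asns, asparagine synthetase, at 9.37 ± 9.05 against 29.3 ± 11.5 RPM in healthy fat. Cytokine receptor and STAT3 genes had 0 of 18, acute phase genes 2 of 21 and resident macrophage markers 1 of 14 lower and none higher at that threshold, with medians of 0.11, -0.42 and -0.25. These shares were not above the background or lay near it (7.49% of all genes lower). Orm1, an acute phase protein of the lipocalin family, was among the lower ones, at 2.37, 1.14, 1.05, 6.50 and 10.5 RPM against 12.7, 30.4, 21.6 and 66.3 RPM in healthy libraries.

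Transcripts of liver plasma proteins were low in the tumour control group beside Alb. Of 16 tested, 6 were lower at an unadjusted limma p under 0.05, against 7.49% of all genes, and none was higher (median -1.62). Alb was among the 6. Hpx, which binds heme in plasma, was at 0, 0.378, 0.351, 0.541 and 0.390 RPM in tumour control libraries, against 13.7, 11.1, 11.2 and 9.89 RPM in healthy libraries. Its 4 healthy values were close to each other, and its change was -3.23 ± 0.75 (log2, SE, adjusted p = 0.0999, limma). Gc, the vitamin D carrier, and Ambp, a plasma protease inhibitor, were named after their values were seen and had 0 reads in all 5 tumour control libraries. They had 48 and 29 reads over the healthy group. Against 3 reads over the tumour control group, they were at least 20.1-fold and 12.1-fold higher in healthy fat. Alb was 0.271 RPM in tumour control 4, the tumour control library without lymph node RNA, against 39.7 and 46.9 RPM in the 2 healthy libraries without it. With lymph node RNA it was 0 in 4 tumour control libraries, against 17.4 and 26.3 RPM in 2 healthy libraries. With the adipocyte score as a covariate, chosen after seeing the data, Alb was the single gene still called, 0.00588% of genes (-5.11, adjusted p = 0.000325, limma).

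Markers of mammary and skin epithelium were lower in 10 of 18 at an unadjusted limma p under 0.05, against 7.49% of all genes (median -0.99). Krt8, a keratin of gland epithelium, was at 32.8, 15.1, 32.6, 34.7 and 34.7 RPM in tumour control libraries, against 79.1, 110, 95.0 and 76.9 RPM in healthy libraries, without overlap. Epcam, an adhesion molecule of epithelium, averaged 48.5 ± 29.2 RPM (SD, n = 5) against 130 ± 38.6 RPM (SD, n = 4) in healthy fat, with overlap. The summed level of the 19 epithelial markers in the table was 1001 to 2760 RPM in the tumour control group and 2471 to 3291 RPM in the healthy group. Among the libraries with lymph node RNA the median was -1.02, and 1 of 18 markers was lower at that threshold, against 3.91% of all genes.

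On the higher side limma called no gene (0%), edgeR called none, and 140 genes had an unadjusted limma p under 0.05. DESeq2 called 3, and limma called 4 without tumour control 4, where 834 genes were higher at an unadjusted limma p under 0.05. All 18 B cell markers and 14 of 24 T and NK cell markers were among these 834. Tsc22d3, the glucocorticoid-induced leucine zipper, was at 208, 205, 182, 201 and 148 RPM in tumour control libraries, against 77.4, 89.8, 124 and 117 RPM in healthy libraries. Every tumour control library was above every healthy one, at 0.90 ± 0.26 (log2, SE, adjusted p = 0.217, limma), and DESeq2 gave an adjusted p of 0.0479. Fkbp5, a chaperone that glucocorticoids induce, averaged 63.6 ± 11.8 RPM (SD, n = 5) against 31.3 ± 19.2 RPM (SD, n = 4) in healthy fat. The glucocorticoid list as a whole went both ways, with 2 of 15 members higher and 2 lower at an unadjusted limma p under 0.05. Each is 13.3% of the list, against 0.823% of all genes higher and 7.49% lower. One of the lower ones was Dusp1, a phosphatase of MAP kinases, which averaged 33.9 ± 11.5 RPM (SD, n = 5) and in healthy fat 78.2 ± 8.03 RPM (SD, n = 4), without overlap. Mef2c, a transcription factor of muscle, endothelium and B cells, and Baz2a, a chromatin factor, were above the healthy group in all 5 tumour control libraries, at 656 ± 108 and 173 ± 21.9 RPM (SD, n = 5), against 345 ± 149 and 104 ± 23.8 RPM (SD, n = 4). S100a9, a calcium-binding protein of neutrophils, was at 17.6, 7.19, 15.8, 2.17 and 9.36 RPM against 1.76, 1.49, 0 and 1.10 RPM in healthy libraries, also without overlap. Of the 8 neutrophil markers, S100a9 alone was higher at that threshold (0.823% of all genes were), and 1 was lower. Hdc, which makes histamine, and Dbp, a clock output gene, averaged 10.1 ± 2.78 and 22 ± 5.85 RPM (SD, n = 5), against 3.44 ± 2.87 and 10.8 ± 5.49 RPM (SD, n = 4), and both overlapped. Their lists did not follow them: 5 of 6 mast cell markers had fitted changes below 0 (median -0.76). Of 19 clock genes 2 were lower and 1 was higher at that threshold (median -0.30), against 7.49% and 0.823% of all genes.

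Ighg1 and Ighe, heavy chain genes of 2 class-switched antibodies, were near 0 in the healthy group and reached high levels in part of the tumour control group, without a limma call. The other switched classes, named after their values were seen, differed in this. Igha, of IgA, was at 53.2, 14.0, 38.9, 5.41 and 78.8 RPM in tumour control libraries, against 56.3, 90.6, 28.1 and 49.5 RPM in healthy libraries. Ighg2c was at 84.0, 96.1, 72.3, 0 and 0 RPM against 0, 6.68, 0 and 0 RPM in healthy libraries (adjusted p = 0.649, limma). Ighg2b and Ighg3 gave 0.61 and 1.79 on the log2 scale, and their groups overlapped (adjusted p = 0.974 and 0.740, limma). Ighg1, the constant region of IgG1, was at 1281, 2585, 265, 0 and 26.5 RPM in tumour control libraries, against 0, 4.08, 0 and 0.366 RPM in healthy libraries. The 4 tumour control libraries with lymph node RNA all exceeded both healthy libraries with it, and tumour control 4, which lacked it, was at 0. The fitted change was 6.20 ± 1.84 (log2, SE, adjusted p = 0.221, limma), and DESeq2 gave an adjusted p of 0.0117. Without tumour control 4 the change was 7.93 (adjusted p = 0.0312, limma). Over the reads of each group Ighg1 was 688 times as high in the tumour control group (exact 95% interval 394 to 1332, counting error only). Ighm, the constant region of IgM, which B cells carry before class switching, was at 1500, 1536, 912, 38.7 and 577 RPM against 15.8, 523, 599 and 74.8 RPM in healthy libraries. For each 100 RPM of Ighm there were 85.4, 168, 29.0 and 4.59 RPM of Ighg1 in the 4 tumour control libraries with lymph node RNA, against 0.78 and 0 RPM in the 2 healthy ones. Ighd, the IgD constant region, named after its values were seen, held 41.6, 37.1, 42.3 and 76.6 RPM per 100 RPM of Ighm in those tumour control libraries, against 49.4 and 52.7 RPM in the healthy ones.

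Ighe, the IgE constant region, had 51.3, 135 and 25.3 RPM in tumour control 1, 2 and 3 and 0 in tumour control 4 and 5, against 0 reads in the healthy group. It was at least 143-fold higher over the reads of the tumour control group against 3 reads over the healthy group, but 0 in tumour control 5 despite its lymph node RNA. The treated tumour mice, outside this comparison, had Ighg1 at 19.8 and 88.1 RPM in the FGF21 AAV libraries with lymph node RNA and at 5.96, 17.1 and 955 RPM in the efruxifermin ones. Efruxifermin 1, with a B cell score under 3, was at 35.3 RPM. The amount of lymph node RNA moved with these genes: B cell markers had a median log2 change of 2.51 over all libraries and of 0.87 among those with lymph node RNA, and its part in the result was not tested. Cell cycle genes, which dividing lymphocytes express, were higher in 3 of 29 at an unadjusted limma p under 0.05, against 0.823% of all genes (median 0.90). Hmmr and Nusap1, spindle proteins, were at 23.3, 33.7, 18.9, 0.812 and 7.41 RPM and at 13.8, 38.2, 8.42, 3.79 and 17.2 RPM in tumour control libraries, against 1.76, 2.60, 4.68 and 2.56 RPM and 1.05, 8.17, 2.88 and 1.10 RPM in healthy libraries. In both genes tumour control 4 was the lowest of its group.

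**Figure D5:**
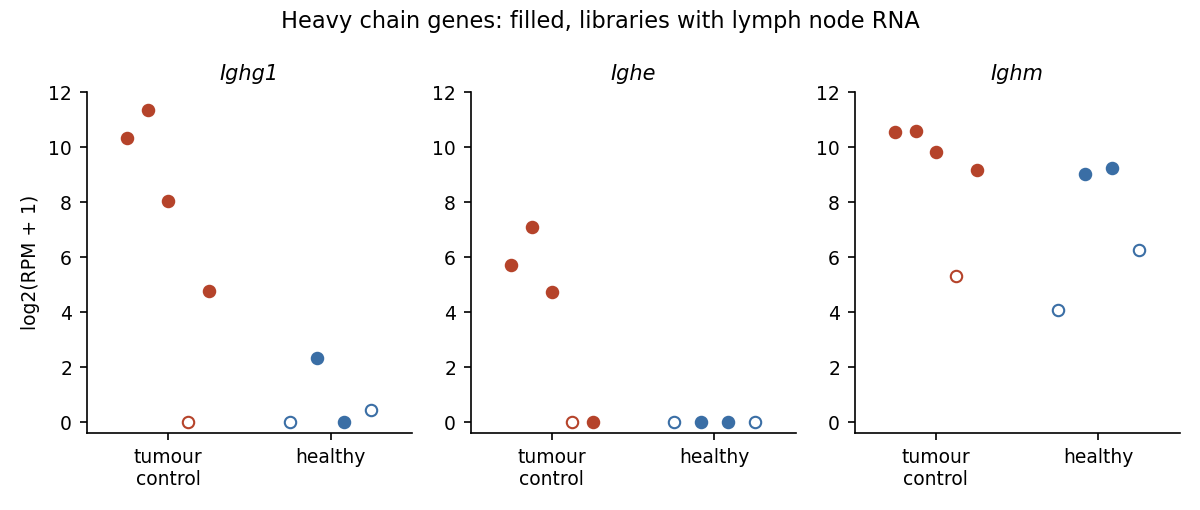
log2(RPM + 1) of Ighg1, Ighe and Ighm is shown for each library, filled where lymph node RNA was present (B cell score above 3) and open where it was not. Filled tumour control points for Ighg1 stand at 26.5 to 2585 RPM, filled healthy points at 0 and 4.08 RPM, while Ighm reaches 577 to 1536 RPM and 523 to 599 RPM in the same libraries.

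The adipocyte score, like many of the genes above, did not overlap between groups. With that score as a covariate, chosen after seeing the data, the median of the adipocyte list, which the score was made from, was 0.11. That of lipid uptake was -0.07, and that of fatty acid oxidation was -0.23. The lipid uptake list shares Lpl, Cd36 and Fabp4 with the score, so its move was in part built in. The collagens stood at -0.99 with 7 of 16 chains lower at an unadjusted limma p under 0.05, against 3.39% of all genes, and the mural list at -1.29 with 5 of 15. The basement membrane list then stood at -0.50 with 1 of 10 members lower at that threshold, and the matrix glycoproteins and remodelling genes at -0.51 with 3 of 26. Acta2 then gave -1.48 (adjusted p = 0.301), Sncg -1.96 (adjusted p = 0.404) and Col5a3 -1.45 (adjusted p = 0.817, limma). With B cell and skeletal muscle scores as covariates instead, all 8 called genes stayed called among 13 (0.0764% of genes), the collagens stood at -1.87, the mural list at -1.17 and the adipocyte list at -1.56, and the median of the B cell list, which that score was made from, was 0.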

How the data were processed

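Per the labels' protocols, RNA of whole inguinal fat was extracted with Trizol and a column kit, and libraries were made with the QuantSeq 3' FWD kit. Per the submitters' processing notes, FastQC, cutadapt, HISAT2 and HTSeq were used with GRCm39; versions and the strand setting are not given in the sources used here, so overlapping and antisense genes cannot be told apart. The deposited table gives RPM for 24844 genes in 19 libraries. Values of up to 1000 reads were whole multiples of 1 read (100% within 0.05), so reads were recovered. Depth was 2106634 to 3693864 reads in the 9 libraries compared. Intervals and floors (3 reads) cover counting error only, since reads carry no molecular identifiers.

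A gene was tested if at least 4 of 19 libraries reached 1 RPM, which left 17013 genes. limma 3.58.1 in R 4.3.3 fitted log2(RPM + 1) over the 4 groups of the series with its trend option, a scale that understates changes of low genes. Calls are two-sided at 0.05 after Benjamini-Hochberg adjustment over all tested genes. The script was tested on simulated reads. Reads were also tested by edgeR 4.0.16 and DESeq2 1.42.0. Other alternatives were pseudocounts, filters, scalings, quality weights, covariates, a replicate block and leaving out each library.

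The comparison and the 51 gene lists were chosen with earlier results of these data known. Lists are described by counts and medians beside those of all genes, with no set test. Named genes are all called genes, the 10 smallest p in each direction among genes of mean RPM 5 or more outside lymphocyte, muscle and cell cycle lists, the 5 most abundant at p under 0.01 in each direction, the 4 smallest p of each list, and Fgf21, Fgfr1, Klb, Lep, Adipoq, Plin1, Lpl, Pck1 and Ucp1. The text names part of these, and says of other names that they were chosen after their values were seen, apart from markers that check a tissue. No 2 libraries agreed within sampling noise. Promoter sequences are from RefSeq (GRCm38.p6). Figures were drawn with matplotlib 3.10.9.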

Additional observations from a re-analysis of the deposited data

Results flagged for a closer look

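Values far from the rest of their group were looked for in 176 groups of values (8 library measures and 80 genes in each of the 2 groups) by the gap to the nearest value over the group's range. Chance marks about 5% of such groups, and 17 were marked. Tumour control 4 had a B cell score of 0.64 (the other tumour controls 6.86 to 8.15) and a T and NK cell score of 0.27 (the others 5.69 to 6.51). The same library was the lowest of its group for Ighm (5.31 on the log2(RPM + 1) scale, next 9.17), Ighd (0, next 8.60) and F3 (3.53, next 4.41), and the highest for Fbn1 (4.68, next 3.39) and Alb (0.35, from its single read, the others 0). Tumour control 2 was the lowest for Krt8 (4.01, next 5.07) and Dbp (3.67, next 4.59), and tumour control 3 the highest for Angptl4 (6.29, next 5.01).

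In the healthy group, healthy 4 had the fewest genes detected (15694, next 16820) and the highest adipocyte score (9.49, next 8.52). It was also the highest for Adipoq (11.10, next 9.73), Lamb1 (8.44, next 7.16), Pi16 (6.78, next 5.39) and Asns (5.57, next 4.64), all on the log2(RPM + 1) scale. Healthy 1 was the lowest for Lep (4.24, next 5.49).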

How the results depend on the processing

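The count of called genes (8, all lower) depended on the processing. It was 13 with a pseudocount of 5, 14 with no filter on low values, 3 with TMM or median-of-ratios factors, and 5 without the 50 most abundant genes, with quantile normalization, or without Gm42418 and the mitochondrial genome, all of these lower. It was 1 by edgeR, 39 by DESeq2 (36 lower and 3 higher), 1 when only the 2 groups were fitted and 381 with library quality weights (363 lower and 18 higher), which gave tumour control 4 a weight of 0.323. It was 13 when B cell and muscle scores entered as covariates, 1 with the adipocyte score, and 0 both with and without lymph node RNA (4 against 2, and 1 against 2 libraries, where the lone library is assumed to vary like the others; 755 and 1384 genes had an unadjusted p under 0.05). Leaving out 1 library gave 1 to 64 called genes, 1 to 60 of them lower and 0 to 4 higher. The causes were not tested. All 8 genes stayed lower under the 28 alternatives, and Alb was called in 26 of them.

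With the replicate number as a block, 40 genes were called, all lower, including the 8. Libraries of the same number correlated at -0.322, 0.431, 0.0138 and 0.335, and those of different numbers at -0.579 to 0.526. These correlations cannot tell whether the numbers pair the mice, and the labels state no pairing.

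Under the adipocyte score as a covariate the fitted change turned above 0 for Fabp4 (0.063), Lep (0.13), Pparg (0.21), Scd1 (0.30) and Npr1 (0.086). Fabp4, Lep and Pparg are in the list that the score was made from, so their move was in part built in. In the libraries without lymph node RNA the fitted change turned below 0 for Ighg1 (-0.23), Ighd (-0.53) and Hmmr (-0.79). With the B cell and muscle covariates it was -0.38 for Ighd, and without tumour control 4 as well -0.31 for Ighd and -0.078 for Ighm. None of these values was called. List medians moved by less than the spread between libraries in 919 of 968 recomputations with other pseudocounts, filters, scalings, a library left out or the adipocyte covariate. That count leaves out edgeR, DESeq2, quality weights, the B cell and muscle covariates, the replicate block and fits to part of the libraries. Skeletal muscle went from -2.78 to 0.82 by edgeR and 0.88 by DESeq2, where collagens gave -1.76 and -1.73. With the B cell and muscle covariates, T and NK cells went from 1.42 to -0.51. At these depths 1 read is worth 0.271 to 0.475 RPM, so genes near 1 RPM rest on a few reads each, which limits Npr3, Tshr and Hpx in the tumour control group.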
